A study of Homo sapiens with 52 samples.

Results

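The mRNA of 10 chromatin-modifying enzymes and their partners was followed in WI-38 cells, a line of normal human lung fibroblasts, as the cells were driven into senescence. The genes are EZH2, EZH1, SUZ12 and EED of Polycomb repressive complex 2 (PRC2), CBX2 of PRC1, the histone H3 lysine 9 (H3K9) methyltransferases SUV39H1 and SUV39H2, the DNA methyltransferases DNMT1 and DNMT3A, and the chromatin remodeler HELLS. They were chosen by symbol, are 10 of the 59408 genes listed, and all 10 were among the 19882 genes tested. Young untreated cells at population doubling level 32 to 46 were compared with cells exposed for 24 h to 0.009% sodium dodecyl sulfate (SDS), a detergent that damages the plasma membrane, to 75 mM KCl, which brings calcium into the cell, or to 250 nM doxorubicin (DXR), which breaks DNA. Each inducer was sampled on day 0, at the end of the exposure, and on 7 later days, which were days 1 to 4, day 6, day 8 and day 16, and cells in replicative senescence (RS) were sampled at about population doubling level 52. The 26 groups hold 2 libraries each, from independent samples of 1 cell line. The cells are called PMD-Sen (SDS), Ca2+-Sen (KCl) and DDR-Sen (DXR) once senescent. The 2 untreated libraries are the control of all 25 comparisons, so an error in them enters each one.

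PRC2 methylates histone H3 at lysine 27, a mark of silenced genes, and EZH2 or EZH1 is its catalytic subunit, while SUZ12 and EED are core subunits that the enzyme needs. CBX2 reads this mark as part of PRC1. SUV39H1 and SUV39H2 methylate H3K9 in constitutive heterochromatin, DNMT1 copies DNA methylation after replication, DNMT3A adds new DNA methylation, and HELLS opens packed chromatin for the DNA methyltransferases. EZH2 is known to be expressed in dividing cells and EZH1 also in resting ones, and Polycomb proteins hold the senescence locus CDKN2A silent in young fibroblasts.

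The deposited tables give a mean over 4 libraries per gene, from which the whole read counts of the single libraries were recovered (as described under the processing). Levels are given as CPM, the usual count of reads scaled to a common library size, here by a size factor. In each pair of levels, reads or ratios the larger library comes first. Pairs of summed marker levels are instead given with the lower sum first, whichever library holds it. The libraries held 15258977 to 55511274 counted reads, and the untreated ones, with 18971653 and 15258977, were the smallest. The 8 fibroblast markers were detected in every library, at a summed level of 10020 to 33180 CPM. The summed level of 4 leukocyte markers was 0.582 to 1.48 CPM in the DXR libraries and 0 to 0.347 CPM in all others. Of these markers CD3E was at 0 in 42 of 52 libraries, while PTPRC was at 0 in 15 and reached 1.204 CPM. The part of these reads in the DXR results was not tested. KRT5 was at 0 in 47 libraries, while the 4 epithelial markers summed to 14.6 to 38.7 CPM, nearly all of it KRT8. The endothelial marker CDH5 was at 0 in 38 libraries, but VWF was found in every library, at 0.782 to 4.245 CPM. The 4 endothelial markers summed to 0.966 to 8.295 CPM, highest on day 0 of KCl (6.296 and 8.295 CPM). The part of these reads in the results was not tested. The 8 markers of dividing cells summed to 652 and 730 CPM in the untreated libraries, 82.7 and 122 CPM in RS, and 114 to 513 CPM in the libraries of the 3 inducers. The 2 RS libraries were the least alike of any group, with a median absolute log2 difference of 0.205 over genes, beside 0.0757 to 0.173 in the other 25 groups, and with fibroblast sums of 18250 and 33180 CPM. Of the 9 calls of the 10 genes in RS against untreated cells, 8 were made in all 52 fits that left out 1 library, all but that of EED. In bulk RNA, fewer cells expressing a gene and less of its RNA per cell cannot be told apart.

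In GENCODE 29 on GRCh38 the PRC2 genes are EZH2 at chr7:148807383-148884321 (minus strand), EZH1 at chr17:42700275-42745049 (minus strand), SUZ12 at chr17:31937018-32001045 (plus strand) and EED at chr11:86244544-86278813 (plus strand), and the PRC1 gene is CBX2 at chr17:79778132-79787983 (plus strand). The DNA methylation genes are DNMT1 at chr19:10133345-10231286 (minus strand), DNMT3A at chr2:25227855-25342590 (minus strand) and HELLS at chr10:94501434-94613905 (plus strand). The H3K9 methyltransferases are SUV39H1 at chrX:48695554-48709012 (plus strand) and SUV39H2 at chr10:14878820-14904315 (plus strand). Counts were taken over a whole gene, so isoforms were not told apart.

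The promoters of 9 of the 10 genes were matched to the RefSeq set for GRCh38.p14, and 5 of them held the letters of an E2F site. E2F factors drive genes of DNA replication. Of these 5 promoters 220 bases (200 before the transcription start and 20 from it) are shown 5′ to 3′ on the gene's strand. Capitals mark the letters TTTCCCGC, TTTCGCGC, TTTGCCGC or TTTGGCGC on either strand.
HELLS, chr10:94545588-94545807, plus strand: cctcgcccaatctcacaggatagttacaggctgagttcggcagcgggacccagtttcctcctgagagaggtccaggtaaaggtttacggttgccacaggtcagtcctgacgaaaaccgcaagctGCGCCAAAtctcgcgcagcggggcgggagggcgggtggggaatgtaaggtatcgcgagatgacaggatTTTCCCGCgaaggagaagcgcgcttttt
EZH2, chr7:148884272-148884491, minus strand: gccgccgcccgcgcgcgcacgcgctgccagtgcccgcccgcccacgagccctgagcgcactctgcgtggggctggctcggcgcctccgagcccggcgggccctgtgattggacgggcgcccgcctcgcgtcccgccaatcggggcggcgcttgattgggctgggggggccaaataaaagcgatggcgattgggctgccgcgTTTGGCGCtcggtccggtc
DNMT1, chr19:10194934-10195153, minus strand: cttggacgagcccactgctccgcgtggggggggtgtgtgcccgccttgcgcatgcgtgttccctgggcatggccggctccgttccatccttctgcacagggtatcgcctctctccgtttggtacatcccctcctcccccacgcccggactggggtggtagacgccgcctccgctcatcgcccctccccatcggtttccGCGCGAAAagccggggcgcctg
SUZ12, chr17:31936807-31937026, plus strand: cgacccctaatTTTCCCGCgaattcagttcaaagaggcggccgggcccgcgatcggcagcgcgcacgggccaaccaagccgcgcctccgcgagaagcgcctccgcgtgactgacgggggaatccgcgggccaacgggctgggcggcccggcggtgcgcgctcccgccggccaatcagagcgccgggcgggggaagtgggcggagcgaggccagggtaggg
EZH1, chr17:42745021-42745240, minus strand: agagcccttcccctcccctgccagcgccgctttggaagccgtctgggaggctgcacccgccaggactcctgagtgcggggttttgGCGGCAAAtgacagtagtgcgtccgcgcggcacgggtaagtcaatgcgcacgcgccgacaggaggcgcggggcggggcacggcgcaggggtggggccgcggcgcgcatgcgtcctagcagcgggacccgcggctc
HELLS held a pair of such matches, and its first promoter letters in capitals are the reverse strand of TTTGGCGC, 76 bases before the start. The match of EZH2 began at base 2 of the transcript and that of SUZ12 189 bases before the start. EZH1, the 1 gene of this set that was mostly higher in senescent cells, held a match as well. No match was found in the promoters of EED, DNMT3A, SUV39H1 and SUV39H2. Over the 300-base promoters of 12318 tested genes, with only the first promoter listed for each, 4.97% held at least 1 of these letters. For the genes followed here every promoter listed was searched, and each match lay in the first. A match is a description of the sequence and was not tested as a binding site.

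EZH2 was lower than in untreated cells in every condition. The untreated libraries held 20.6 and 16.6 CPM. After SDS the 16 libraries ranged from 3.74 to 11.3 CPM with a median of 7.44, after KCl from 3.54 to 12.8 with a median of 8.36, and after DXR from 2.42 to 4.59 with a median of 3.35. The RS libraries held 3.19 and 2.08 CPM. None of these 50 libraries reached either untreated library, which was also the case for HELLS, for SUZ12 and DNMT1 in the 48 libraries whose counts could be told apart, and for 1.58% of all genes tested. The difference passed the test in all 25 comparisons, which was the case for DNMT1 as well and for 0.231% of all genes tested. It ranged from a log2 fold change of -0.72 ± 0.16 (SE) on day 2 of KCl (1.64-fold lower, adjusted p = 0.0136) to -2.82 ± 0.20 in RS (7.07-fold lower, adjusted p = 1.02e-12). Without the larger untreated library 22 of the 25 calls were made, with day 2 of SDS (adjusted p = 0.0861), day 2 of KCl (0.292) and day 16 of KCl (0.0516) lost, and that of day 2 of KCl was also lost without its larger library (0.298). All adjusted p-values are those of limma with the Benjamini-Hochberg method over the 19882 genes.

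The course of EZH2 differed by inducer. After DXR it was at 4.59 and 4.21 CPM on day 0 already and stayed between 2.42 and 3.69 CPM from day 1 to day 16. After SDS it held 10.6 and 11.2 CPM on day 0, 5.35 and 5.42 on day 4, 7.55 and 7.32 on day 8, and 4.26 and 3.74 on day 16. After KCl it held 4.92 and 3.54 CPM on day 8 and 10.5 and 9.59 on day 16. The markers of dividing cells summed to 149 and 169 CPM on day 8 of KCl and to 340 and 350 CPM on day 16. Their part in the level of EZH2 was not tested.

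EZH1, the second catalytic subunit, moved the other way. It stood at 25.2 and 24.3 CPM in untreated cells and reached 42.4 and 40.9 CPM on day 16 of SDS, 47.7 and 41.9 on day 16 of DXR, and 39.9 and 39.9 in RS. It was called higher in 18 of 25 comparisons and lower in 1, SDS day 0. On day 0 of SDS it held 21.1 and 19.4 CPM, a log2 fold change of -0.29 ± 0.10 (adjusted p = 0.0217). This call was lost without the smaller SDS day 0 library (-0.23, adjusted p = 0.157) and without the larger untreated one (adjusted p = 0.136). All 16 DXR libraries, at 29.1 to 47.7 CPM with a median of 36.8, lay above both untreated ones. The share of all genes for which this held was not counted. The rise against untreated cells was largest on day 16 of DXR, 0.85 ± 0.09 (1.81-fold, adjusted p = 5.83e-09). Calls of a higher level made up 9.87% of all gene and day pairs after SDS, 7.7% after KCl and 10.5% after DXR, and 18.9% of all genes in RS.

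The balance of EZH1 to EZH2 within a library needs no scaling between libraries. Counted per exon length, it was 0.791 and 0.946 in untreated cells, so that EZH2 was the more abundant of the pair by this measure. In reads alone EZH1 held more in these libraries, 490 against 401 and 386 against 264. The order in untreated cells thus depends on the exon lengths used, 6988 bases for EZH1 and 4522 for EZH2. The change of the ratio between libraries does not. In all 50 other libraries EZH1 was the more abundant. After SDS the ratio ran from 1.12 to 7.07 with a median of 2.99, after KCl from 1.14 to 7.23 with a median of 2.24, and after DXR from 5.15 to 12.8 with a median of 6.82. RS held 8.08 and 12.4. The lowest DXR library lay above every SDS and KCl library of days 0 to 4. On day 16 of KCl the ratio was 2.06 and 2.27, below the 5.33 and 7.23 of day 8.

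**Figure D1:**
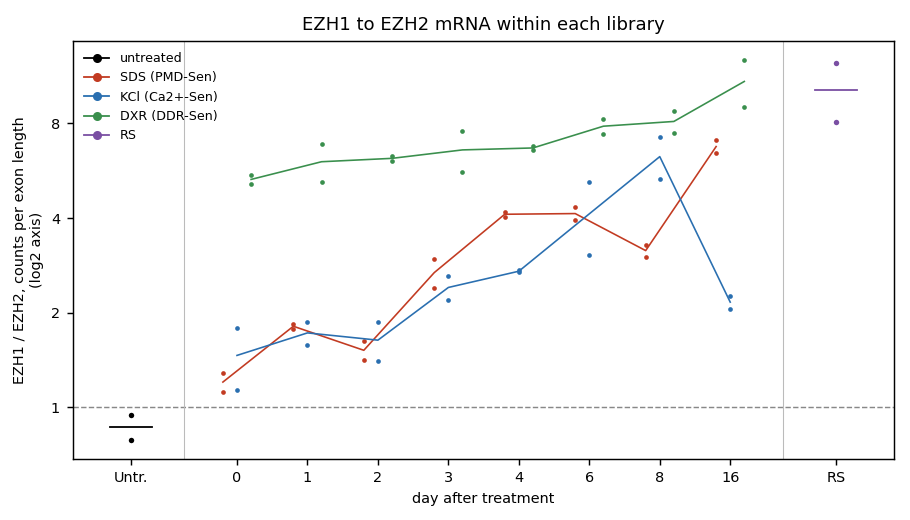
Ratio of EZH1 to EZH2 counts per exon length (y axis, log2 scale) in each library by day after treatment (x axis, days equally spaced), with untreated cells (Untr.) at the left and RS at the right. Points are single libraries and lines join the means of 2. The untreated libraries lie below 1 (dashed line), at 0.791 and 0.946, and all others above it. The place of the dashed line depends on the exon lengths used.

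SUZ12 and EED, the other core subunits, changed less. SUZ12 stood at 55.2 and 52.2 CPM in untreated cells, at 27.9 to 49.3 CPM after SDS (median 43.8), at 38.1 to 51.9 after KCl (median 43.9) and at 34.5 and 37.2 in RS. In the 14 DXR libraries whose counts could be told apart it was at 30.9 to 44.4 CPM, with a median of 39.6, and the mean of DXR day 1 was 36.4, where the fit used the split nearest equality. It was called lower in 18 of 25 comparisons, with the largest difference on day 16 of SDS (log2 fold change -0.73 ± 0.11, 1.66-fold lower, adjusted p = 2.36e-06). Without the larger untreated library 9 of these calls remained past the threshold. Reads shared with the pseudogene SUZ12P1, at 4.83 and 4.72 CPM in untreated cells, may be split between the 2 genes.

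EED, the subunit that binds the mark itself, had no common course. It held 16.0 and 13.5 CPM in untreated cells, 11.1 and 11.04 on day 0 of SDS, 18.1 and 16.6 on day 0 of KCl, and 20.5 and 24.7 on day 0 of DXR. The libraries of these 3 treatments do not overlap, and the share of all genes for which this held was not counted. By the test, 47.6% of all genes differed between SDS and DXR on this day. Against untreated cells EED fell on day 0 of SDS (log2 fold change -0.42 ± 0.14, adjusted p = 0.0142) and rose on day 0 of DXR (0.60 ± 0.11, adjusted p = 9.9e-05), and between these 2 it differed by -1.02 ± 0.11 (2.02-fold, adjusted p = 4.1e-09). On day 1 of DXR it held 13.8 and 13.8 CPM, lower than on day 0 (-0.70 ± 0.10, adjusted p = 2.99e-06). The only other call against untreated cells was in RS (-0.36 ± 0.12, adjusted p = 0.0174), lost without the larger RS library (adjusted p = 0.0747). Without the larger untreated library neither call of a lower level was made, and the call on day 0 of SDS was also lost without either SDS library (adjusted p = 0.0617 and 0.0587).

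CBX2, the PRC1 subunit, was scarce, with 10 to 174 reads a library. It stood at 2.78 and 1.76 CPM in untreated cells. On day 0 of SDS it was at 0.476 and 0.431 CPM, a log2 fold change of -2.27 ± 0.40 (4.81-fold lower, adjusted p = 2.29e-05), and on day 1 at 1.88 and 1.95. On day 0 of KCl it held 3.08 and 3.34 CPM, above both untreated libraries, with a difference of 0.48 ± 0.24 that did not pass the test (adjusted p = 0.0973, 95% interval 0.02 to 0.94). The 16 DXR libraries ranged from 0.278 to 0.905 CPM and lay below both untreated ones. It was called lower in 21 of 25 comparisons, of which 11 were called without the larger untreated library. CBX7, another CBX subunit of PRC1 that represses CDKN2A, held 5.81 and 7.55 CPM in untreated cells and was called higher in 14 of 25 comparisons, among them day 16 of SDS (13.4 and 12.97 CPM), of KCl (9.94 and 9.73) and of DXR (13.1 and 13.4), and RS (14.8 and 12.1). On day 0 of KCl CBX7 was lower, at 3.24 and 2.98 CPM (-1.06 ± 0.20, adjusted p = 3.75e-05). CDKN2A itself was at 22.9 and 22.9 CPM in untreated cells, 71.2 and 65.3 in RS, 15.6 and 17.1 on day 0 of DXR, where it was called lower (-0.49 ± 0.13, adjusted p = 0.00476), 37.1 and 41.8 on day 16 of SDS, 37.5 and 42.3 on day 16 of DXR, and 30.8 and 29.3 on day 16 of KCl, where it did not pass the test (adjusted p = 0.0617). BMI1, another PRC1 subunit known to repress CDKN2A, was called in 3 of 25 comparisons. It was higher on day 0 of SDS (0.29 ± 0.10) and of KCl (0.61 ± 0.09), and lower on day 0 of DXR (-0.24 ± 0.09).

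**Figure D2:**
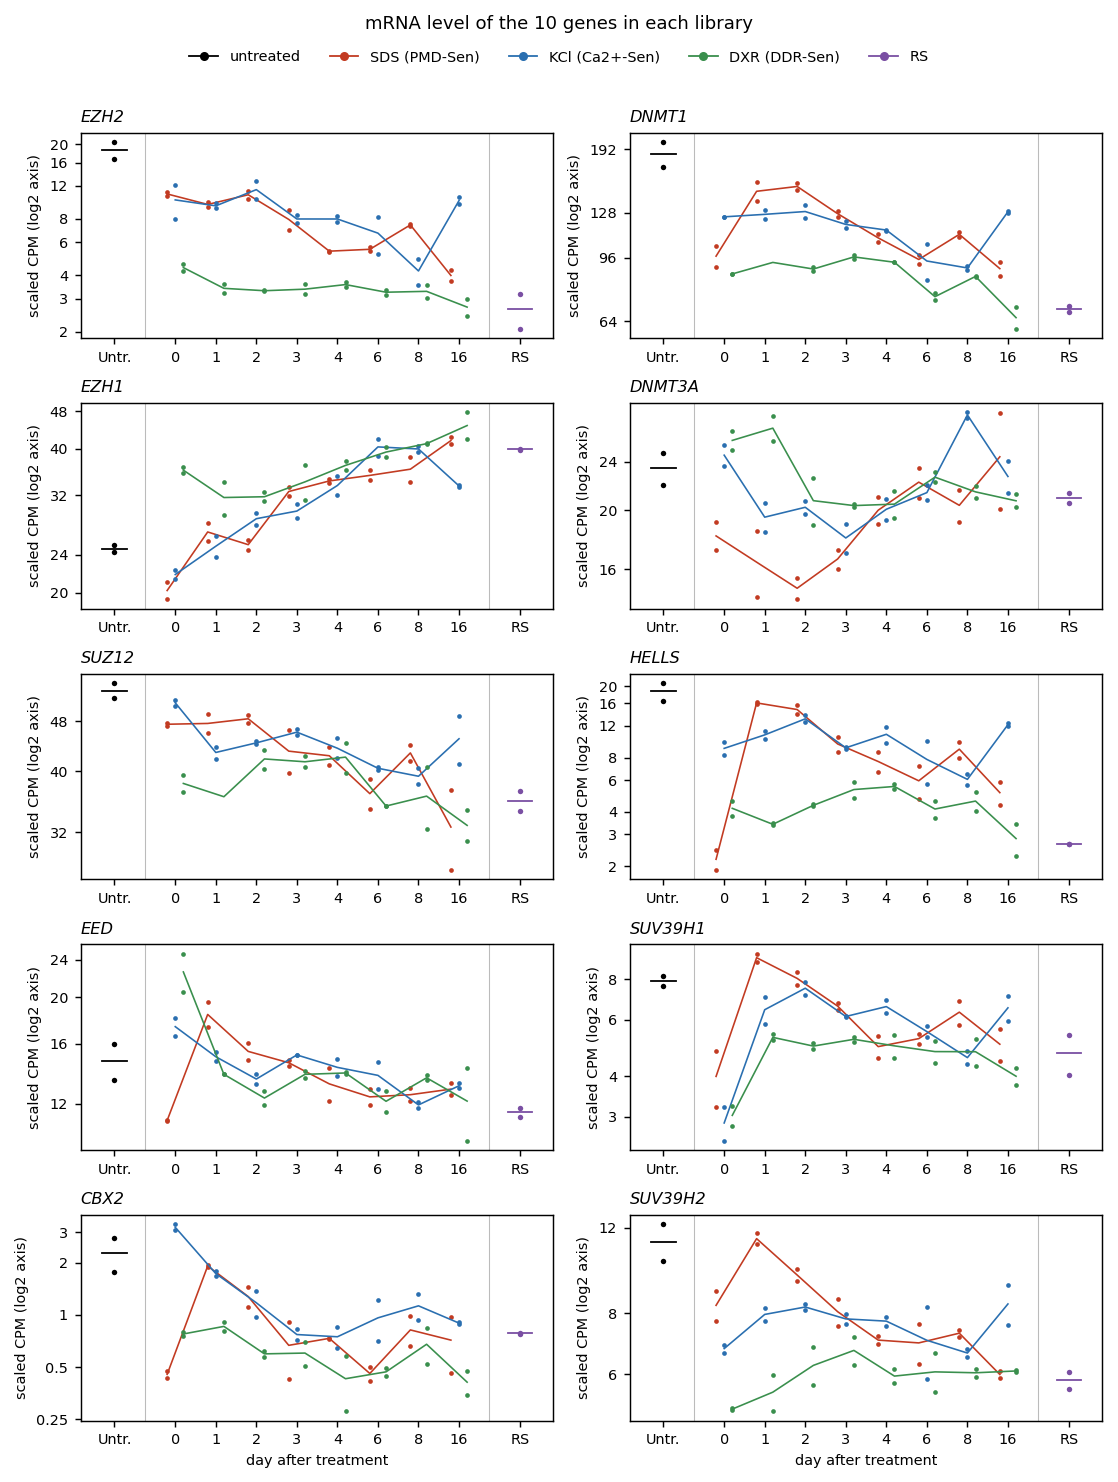
Scaled CPM of the 10 genes (y axes, log2 scale) by day after treatment (x axes, days equally spaced), with untreated cells (Untr.) at the left and RS at the right. Points are single libraries and lines join, or bars mark, the means of 2. SUZ12 and DNMT1 have only a mean on day 1 of DXR. EZH2 and HELLS after DXR stay below 6 CPM on every day, while the untreated libraries hold 16.6 to 20.8 CPM.

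SUV39H1 had its lowest mean after each inducer on day 0. It stood at 8.23 and 7.61 CPM in untreated cells and at 3.21 and 4.79 on day 0 of SDS, 2.53 and 3.21 on day 0 of KCl, and 3.25 and 2.81 on day 0 of DXR. None of these libraries overlaps the untreated ones, and the share of all genes for which this held was not counted. By the test, 19.4%, 23.9% and 15.8% of all genes were called lower on this day after SDS, KCl and DXR. The fall of SUV39H1 was largest after KCl (log2 fold change -1.52 ± 0.18, 2.87-fold, adjusted p = 1.64e-08). On day 1 it held 9.07 and 9.61 CPM after SDS, 5.80 and 7.08 after KCl and 5.40 and 5.18 after DXR, a rise over day 0 that passed the test after each inducer. It remained called lower on all 8 days of DXR, at 2.81 to 5.40 CPM, and in 16 of 25 comparisons, of which 8 were called without the larger untreated library. Both of its SDS day 1 libraries and 1 of day 2 lay above both untreated ones.

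SUV39H2, the second enzyme of this pair, was called lower in 22 of 25 comparisons. It held 10.2 and 12.2 CPM in untreated cells, 5.88 to 11.7 after SDS (median 7.58), 5.86 to 9.17 after KCl (median 7.66), 5.03 to 7.17 after DXR (median 6.01), and 5.59 and 6.06 in RS. Its lowest mean after DXR was that of day 0, at 5.11 and 5.05 CPM (-1.13 ± 0.13 on the log2 scale), and after SDS that of day 16, at 5.88 and 6.10 CPM. Without the smaller untreated library 16 calls were made. Genes on the other strand overlap both, DCLRE1C for SUV39H2 and an antisense RNA for SUV39H1, and whether the counting used strand is not given in the sources used here.

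DNMT1 was the most abundant of the 10 genes per exon length in untreated cells and in each of the 5 other groups ranked. It stood at 201 and 172 CPM in untreated cells, at 85.8 to 156 after SDS (median 111), at 83.4 to 134 after KCl (median 122), at 61.1 to 97.7 in 14 DXR libraries (median 86.7), and at 68.2 and 70.6 in RS. All of these lie below both untreated libraries. The smallest difference was that of SDS day 2, -0.30 ± 0.08 on the log2 scale (1.23-fold lower, adjusted p = 0.00946), and the largest that of DXR day 16, -1.51 ± 0.08 (2.85-fold lower, adjusted p = 5.23e-15). All 25 differences were called, and 23 without the larger untreated library, with days 1 and 2 of SDS lost (adjusted p = 0.121 and 0.316).

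DNMT3A did not follow DNMT1. It held 24.8 and 22.01 CPM in untreated cells, and 18.5 and 14.4, then 14.3 and 15.5 CPM on days 1 and 2 of SDS. It was called lower on days 0 to 3 of SDS and in no other comparison with untreated cells, with the largest difference on day 2 (-0.66 ± 0.13, 1.58-fold lower, adjusted p = 0.000825). None of the 4 calls was made without the larger untreated library. On day 8 of KCl it held 28.4 and 28.9 CPM, above both untreated libraries, a difference of 0.28 ± 0.13 that did not pass the test (adjusted p = 0.0892, 95% interval 0.04 to 0.53). In RS it held 21.3 and 20.5 CPM. Within a library the ratio of DNMT3A to DNMT1 per exon length was 0.101 and 0.104 in untreated cells, 0.255 and 0.237 in RS, and 0.270 and 0.247 on day 16 of DXR.

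Of the 10 genes, HELLS had the largest difference from untreated cells in any group and the largest rise from day 0 to day 1. It stood at 20.8 and 16.6 CPM in untreated cells and at 1.90 and 2.46 on day 0 of SDS, a log2 fold change of -3.11 ± 0.29 (8.63-fold lower, adjusted p = 1.49e-10). On day 1 of SDS it was at 15.8 and 16.4 CPM, 7.39-fold above day 0 (2.89 ± 0.28, adjusted p = 3.68e-10), and its difference from untreated cells did not pass the test (-0.22 ± 0.17, adjusted p = 0.405). On day 16 it held 5.88 and 4.36 CPM, 3.67-fold below untreated cells (adjusted p = 1.36e-08). After DXR it was at 2.27 to 5.86 CPM on every day, with a median of 4.35, after KCl at 5.66 to 13.7 with a median of 9.85, and in RS at 2.67 and 2.65. The markers of dividing cells summed to 120 and 172 CPM on day 0 of SDS and to 435 and 495 on day 1, and their part in the course of HELLS was not tested. Same-strand genes overlap HELLS (TBC1D12) and DNMT1 (S1PR2) in GENCODE 29.

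UHRF1, which brings DNMT1 to newly copied DNA, and CDCA7, the partner that activates HELLS, were each called lower in all 25 comparisons. UHRF1 fell from 97.1 and 80.6 CPM in untreated cells to 16.4 and 18.8 on day 0 of SDS, stood at 58.7 and 63.6 on day 1, and was at 12.4 and 13.6 in RS. CDCA7 held 18.4 and 14.3 CPM in untreated cells and 0.832 and 0.350 in RS, the lowest of its groups (log2 fold change -4.83 ± 0.37, adjusted p = 4.26e-12). DNMT3B, the other enzyme that adds new methylation, was at 5.19 and 4.84 CPM in untreated cells and at 1.15 and 1.20 on day 0 of KCl (-2.10 ± 0.25, adjusted p = 1.3e-08). It was called lower in 16 of 25 comparisons.

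Counted by day, 9 of the 10 genes were called lower on day 0 of SDS, where 19.4% of all genes were. On days 1 and 2 of SDS 3 and 4 genes were called lower, with 8.83% and 5.84% of all genes. From day 3 to day 16 the counts were 7, 7, 7, 6 and 7 genes, beside 5.92%, 8.39%, 9.75%, 9.36% and 16.2% of all genes. After KCl they were 5, 5, 2, 5, 6, 7, 7 and 5 genes from day 0 to day 16, beside 23.9%, 5.3%, 1.42%, 4.83%, 6.75%, 9.03%, 15.2% and 5.13%. After DXR they were 7 genes on each of the 8 days, the same 7 throughout (EZH2, SUZ12, CBX2, DNMT1, HELLS, SUV39H1 and SUV39H2), beside 15.8%, 10.5%, 6.66%, 7.47%, 9.33%, 12.5%, 12.6% and 17.4%. All 16 DXR libraries, or the 14 that could be told apart, lay below both untreated ones for these 7 genes, and for 9.1% of all genes. In RS 8 genes were called lower, beside 18.3% of all genes. Summed over the days, 50 of 80 gene and day pairs were called lower after SDS, 42 after KCl and 56 after DXR, beside 10.5%, 8.95% and 11.5% of all pairs. Without the larger untreated library these were 31, 28 and 48, with 0 genes on day 2 of SDS and 2 on day 16 of KCl. The share of all genes called in that fit is not given here. The counts given here thus do not show whether calls were lost over all genes alike or mainly among these 10. The median log2 fold change of the 10 genes in RS was -0.84, beside 0.04 for all genes tested.

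**Figure D3:**
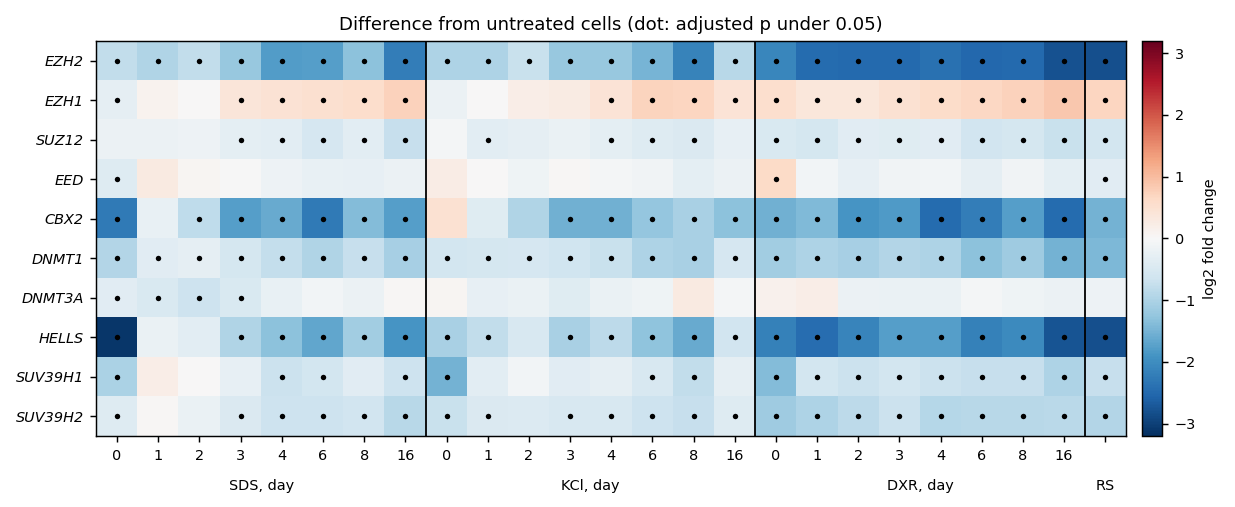
Log2 fold change of the 10 genes (rows) against untreated cells on each day of the 3 inducers and in RS (columns). Blue is lower and red higher, and a dot marks an adjusted p-value under 0.05. Rows EZH2 and DNMT1 have a dot in all 25 columns, and EZH1 is the only row that is red over most of them.

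The 3 inducers were then compared on the same day. SDS and DXR differed in 34 of 80 gene and day pairs, 26 of them higher after SDS and 8 lower, beside 7.13% and 6.42% of all pairs. On day 0, where 47.6% of all genes differed, EZH2, SUZ12 and SUV39H2 were higher after SDS and EZH1, EED, DNMT3A and HELLS lower. EZH1 held 21.1 and 19.4 CPM after SDS and 36.6 and 35.6 after DXR, a difference of -0.84 ± 0.09 (1.78-fold, adjusted p = 1.24e-09). On day 1, 8 genes were higher after SDS (14.8% of all genes), and on day 2, 7 genes (11% of all genes), while EZH1 and DNMT3A were lower on both days. The largest of these differences was HELLS on day 1, 15.8 and 16.4 CPM against 3.46 and 3.37 (2.23 ± 0.21, 4.68-fold, adjusted p = 1.17e-09). EZH2 was 3.24-fold higher after SDS on day 2 (11.3 and 10.3 CPM against 3.34 and 3.30). On days 4 and 6 limma called 0 of the 10 genes, with 4 and 2 genes at an unadjusted p under 0.05, and limma-trend called 0 and 1. On day 16 DNMT1 (0.46 ± 0.08) and HELLS (0.89 ± 0.27, adjusted p = 0.0495) did. The call of HELLS on day 16 was lost in 40 of the 52 fits that left out 1 library, and that of DNMT1 without the smaller SDS or the larger DXR library of that day (adjusted p = 0.0649 and 0.0762). Of the 34 calls between SDS and DXR, 17 were made in all 52 of these fits, among them EZH2, DNMT1, HELLS, SUV39H1 and SUV39H2 on days 1 and 2, and EZH1 and EED on day 0. Those of SUZ12 and HELLS on day 0, of EZH1, SUZ12, EED and CBX2 on day 1, and of EZH1, EED, CBX2 and DNMT3A on day 2 were not.

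SDS and KCl differed in 19 of 80 pairs, 7 higher after SDS and 12 lower, beside 6.92% and 6.79% of all pairs. On day 0 EED, CBX2, DNMT1, DNMT3A and HELLS were lower after SDS (27.6% of all genes were), and SUV39H1 was higher. CBX2 was 6.71-fold lower (-2.75 ± 0.37, adjusted p = 1.13e-07) and HELLS 4.21-fold lower (1.90 and 2.46 CPM against 9.76 and 8.26). The call of SUV39H1 was lost without the smaller SDS library (0.22, adjusted p = 0.479) or the larger KCl library (0.28, adjusted p = 0.371), and that of DNMT3A without the smaller SDS library (adjusted p = 0.0523). On days 3, 4 and 6 limma called 0 genes, with 0, 3 and 2 at an unadjusted p under 0.05, and limma-trend called 0. On day 16 EZH2, SUZ12, DNMT1, HELLS and SUV39H2 were lower after SDS, beside 9.6% of all genes, and EZH1 was higher. EZH2 held 4.26 and 3.74 CPM after SDS and 10.5 and 9.59 after KCl (-1.32 ± 0.21, 2.50-fold, adjusted p = 3.22e-05). The call of SUZ12 (-0.47) was lost without the smaller SDS library (-0.26, adjusted p = 0.144) or the smaller KCl library (-0.34, adjusted p = 0.0761), and that of SUV39H2 without any of 3 libraries (adjusted p = 0.055 to 0.198). Of the 19 calls, 9 were made in all 52 fits that left out 1 library.

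KCl and DXR differed in 37 of 80 pairs, 32 higher after KCl and 5 lower, beside 8.54% and 8.41% of all pairs. Of the 10 genes, 6 were higher after KCl on day 0 (28.6% of all genes) and 7 on day 16 (11.5% of all genes). On day 16 the difference of EZH2 was 1.90 ± 0.23 (3.73-fold, adjusted p = 3.67e-07). On that day SUZ12, CBX2, SUV39H1 and SUV39H2 each lost their call without at least 1 library, and EZH2, EZH1, DNMT1 and HELLS did not. On day 8 limma called DNMT3A alone (0.42 ± 0.12, adjusted p = 0.0115), and lost it without either KCl library or the smaller DXR library (adjusted p = 0.0536 to 0.109). Of the 37 calls, 18 were made in all 52 fits that left out 1 library. These comparisons share libraries with each other, since each inducer enters 2 of them.

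**Figure D4:**
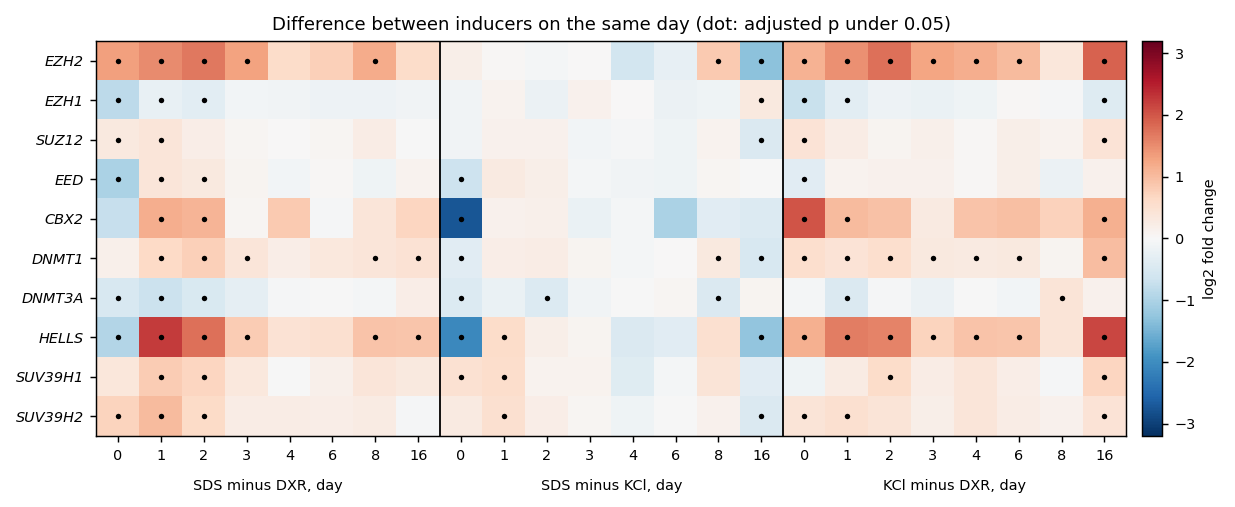
Log2 fold change of the 10 genes (rows) between pairs of inducers on the same day (columns). Red is higher in the first inducer named, and a dot marks an adjusted p-value under 0.05. The dots of the SDS minus DXR panel gather on days 0 to 2, and those of the KCl minus DXR panel are most frequent on days 0 and 16.

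From day 0 to day 1, 7 genes rose after SDS (EZH1, EED, CBX2, DNMT1, HELLS, SUV39H1 and SUV39H2), beside 21.9% of all genes. EZH2 was not among them (-0.18 ± 0.18). After KCl SUZ12, CBX2 and DNMT3A fell, beside 26.9% of all genes, and SUV39H1 rose. The calls of SUZ12 and DNMT3A after KCl and of SUV39H2 after SDS were lost without at least 1 library. After DXR EED fell and SUV39H1 rose, beside 19.7% of all genes that changed either way. Between day 0 and day 16, EZH1 rose after each inducer (1.04 ± 0.09 for SDS, 0.61 ± 0.08 for KCl and 0.31 ± 0.07 for DXR). EZH2 fell after SDS (-1.44 ± 0.21) and DXR (-0.71 ± 0.24), and its difference after KCl was 0.08 ± 0.16. The call after DXR was lost without the larger library of day 0 (-0.65, adjusted p = 0.083) or of day 16 (-0.55, adjusted p = 0.2), and that of EZH1 after DXR without the larger library of day 16 (0.21, adjusted p = 0.0751). In all, 6 genes differed between these days after SDS, 6 after KCl and 5 after DXR, beside 48.3%, 51.1% and 37.8% of all genes, so that their share was near that of all genes.

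RS was last set against day 16 of each inducer. Against DXR limma called 0 of the 10 genes, beside 5.23% of all genes, and limma-trend called 0 as well. EZH1 and CBX2 had an unadjusted p under 0.05. The difference of EZH2 was -0.03 ± 0.26, with a 95% interval of -0.53 to 0.48. Against SDS, DNMT1 (-0.37 ± 0.08) and HELLS (-0.94 ± 0.24) were lower in RS, beside 8.22% of all genes. The call of DNMT1 was lost without the smaller SDS library (-0.31, adjusted p = 0.0539) and that of HELLS without the larger one (-0.71, adjusted p = 0.101). Against KCl 6 genes were lower in RS, beside 12.4% of all genes, with EZH2 (-1.93 ± 0.21) and HELLS (-2.20 ± 0.21) differing most, and EZH1 was higher (0.25 ± 0.08). The calls of EZH2, DNMT1 and HELLS were made in all 52 fits that left out 1 library. EZH1 was lost without either KCl library, SUZ12 without the smaller KCl library (-0.20, adjusted p = 0.285) or the larger RS library (adjusted p = 0.101), SUV39H1 without the larger KCl library (-0.33, adjusted p = 0.261) or the smaller RS library (-0.28, adjusted p = 0.209), and SUV39H2 without the smaller KCl library (adjusted p = 0.0764).

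Wider lists of chromatin genes were counted beside the share of all genes called lower, which was 19.4%, 23.9% and 15.8% on day 0 of SDS, KCl and DXR, 16.2%, 5.13% and 17.4% on day 16, and 18.3% in RS. The lists include those of the 10 genes that belong to them, so their counts partly repeat calls given above. Of the 8 tested genes of DNA methylation, 5 were lower on day 0 of SDS, 5 of KCl and 6 of DXR, then 7, 4 and 7 on day 16 of these inducers, and 7 in RS, while 1 gene was higher on day 0 of SDS. Its median log2 fold change in RS was -1.03, beside 0.04 for all genes. Of 11 tested PRC2 genes, 7 were lower on day 0 of SDS, 3 of KCl and 6 of DXR, with 0, 2 and 3 higher. The 3 lower ones of KCl were near the share of all genes. On day 16 of these inducers 5, 3 and 6 were lower and 1 higher each time. In RS 8 were lower and 1 higher. RBBP7, the histone-binding subunit, was called lower in all 25 comparisons (116 and 117 CPM in untreated cells, 69.0 and 61.1 in RS). Of 19 PRC1 genes, 7 were higher on day 0 of KCl, beside 23.5% of all genes, and 4 lower, a share near that of all genes. On day 0 of SDS 5 were lower and 2 higher, and on day 0 of DXR 8 were lower and 1 higher. On day 16 of SDS, KCl and DXR 5, 1 and 8 were lower and 2, 1 and 2 higher. In RS 6 were lower and 3 higher. Of 6 H3K9 methyltransferases, 3 were lower on day 0 of SDS, 2 of KCl and 3 of DXR, and 3 in RS. The 2 of KCl were SUV39H1 and SUV39H2, which are also among those of SDS, DXR and RS. Of 10 genes of HP1 and its partners, 6 were lower on day 16 of SDS, 4 of KCl and 6 of DXR, with none higher. CBX5, the HP1 protein that binds methylated H3K9, was called lower in 21 of 25 comparisons, from 189 and 167 CPM in untreated cells to 91.5 and 98.9 on day 16 of DXR.

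In the lists that hold the histone demethylases, 1 of which also holds genes of H2A deubiquitination, higher calls outnumbered lower ones on day 0. Of 5 genes for H3K27 demethylases and H2A deubiquitination, 4 were higher on day 0 of SDS, 3 of KCl and 2 of DXR, beside 19.9%, 23.5% and 14.8% of all genes. ASXL1, a gene of H2A deubiquitination, was lower on day 0 of SDS (-0.35 ± 0.07) and DXR (-0.42 ± 0.07) and higher on day 0 of KCl (0.99 ± 0.07). KDM6B, an H3K27 demethylase, held 27.2 and 23.4 CPM in untreated cells, 58.4 and 43.5 on day 0 of SDS, and 62.0 and 63.4 on day 0 of KCl (1.31 ± 0.11, adjusted p = 3.16e-11). On day 1 it held 23.9 and 23.9 CPM after SDS and 24.9 and 24.5 after KCl, within the range of the untreated libraries. It was called lower on day 2 of SDS (18.0 and 18.0 CPM). In 8 of 25 comparisons it was called higher, among them day 16 of SDS (34.3 and 40.3 CPM) and of DXR (37.2 and 36.7), and RS (37.5 and 37.2). Of 6 H3K9 demethylases, 3, 4 and 3 were higher on day 0 of SDS, KCl and DXR, and 1, KDM3B, was lower on day 0 of SDS (-0.41 ± 0.07). KDM4B, one of them, was called higher in 15 of 25 comparisons and held 115 and 134 CPM on day 0 of DXR, beside 67.5 and 60.1 in untreated cells. Of 4 genes of DNA demethylation, 3 were lower on day 16 of SDS, 4 of DXR and 2 in RS, beside 16.2%, 17.4% and 18.3% of all genes. Of 5 methyl-CpG readers, 3 were higher on day 0 of KCl, beside 23.5%, and 3 lower on day 0 of DXR, beside 15.8%. Of 3 H4K20 methyltransferases, 2 were lower on day 16 of SDS, beside 16.2%, and 1, KMT5C, was higher (0.83 ± 0.21, adjusted p = 0.00224). KMT5C was called higher in 9 of 25 comparisons and lower in 1.

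**Figure D5:**
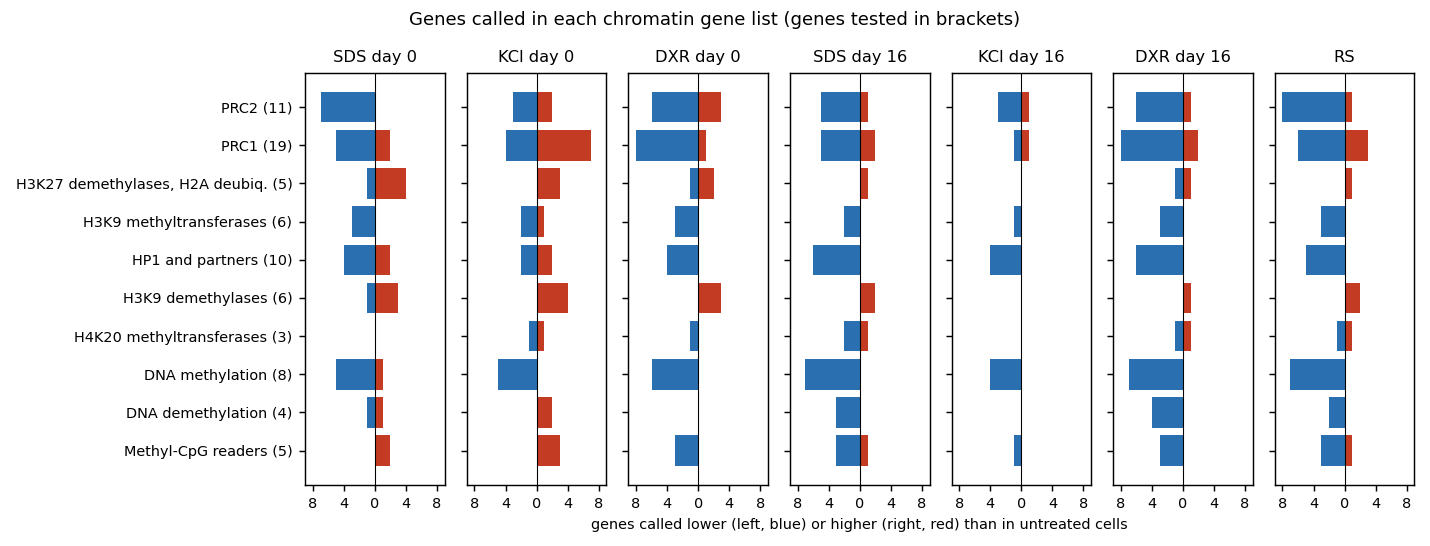
Number of genes called lower (blue, left of 0) or higher (red, right of 0) than in untreated cells in each list of chromatin genes (rows, genes tested in brackets) on day 0 and day 16 of each inducer and in RS (panels). The DNA methylation row reaches 7 lower calls of 8 genes on day 16 of SDS and DXR and in RS, and the H3K9 demethylases have only higher calls on day 0 of KCl and DXR.

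Across the 26 group means, which share a cell line and the scaling of the libraries, the genes most alike in course were found among 11145 genes with a mean of at least 100 reads. For EZH2 these were FOXM1 (Pearson r = 0.962), GAS2L3 (0.956) and KIF14 (0.95), and for HELLS ATAD2 (0.963), LMNB2 (0.962) and FAM83D (0.953). For DNMT1 they were UHRF1, LMNB2 and RFWD3 (0.951 to 0.952). For SUV39H2 they were CENPO, NDC1 and FEN1 (0.937 to 0.959), for SUV39H1 DCK, USP13 and DSCC1 (0.918 to 0.932), and for SUZ12 NAA15 (0.929) and LTV1 (0.915). EZH1 was most like PCYOX1 (0.964), SNX1 (0.953) and PAQR7 (0.952). The values for CBX2 (ARID3B, 0.924), EED (IER5, 0.863) and DNMT3A (COL6A1, 0.869) were lower. Among the 10 genes themselves, r was highest between EZH2 and DNMT1 (0.898) and lowest between EZH1 and SUZ12 (-0.825), each over 26 groups.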

How the data were processed

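The mRNA of WI-38 cells was sequenced. The submitters' processing notes name Trim Galore, HISAT2, HTSeq, featureCounts, DESeq2 and GRCh38, with no versions. The authors deposited 52 files holding 25 distinct tables, each of 1 group against the same 2 untreated libraries. The deposited signal is the authors' mean, over the 4 libraries of a table, of counts divided by DESeq2 size factors. The authors' fold changes, standard errors, test statistics and p-values in the same tables were not used. Other columns of per-sample values numbered 0, and 1 row that names no gene was left out.

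Each deposited mean is the sum of 4 whole counts, each divided by 4 times its library's size factor. The weights were found from genes with 1 read, and the untreated counts, common to all tables, by lattice reduction (SymPy 1.14.0) over 6 tables that keep 15 digits. The counts of the treated pair followed by enumeration in every table. Of 46275 genes above 0, 46273 were recovered, and 42988 (92.9%) with 1 possible pair in every table. For the others, mostly in DXR day 1, the pair nearest equality was used, so that the group mean is exact and the split is not (SUZ12 and DNMT1 in DXR day 1). Median-of-ratios factors of the recovered counts gave back the deposited means with a median difference of 8.72e-05% to 0.00318% in 24 tables and 0.0215% in DXR day 1. The steps were tested on simulated tables. A recovered library is not tied to a replicate number of the labels.

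Counts were fitted with voom and limma 3.58.1 (R 4.3.3) over all 52 libraries and 26 groups, scaled by median-of-ratios size factors. Genes with at least 10 counts in at least 2 libraries were tested in 58 comparisons. P-values were adjusted over all tested genes of a comparison (Benjamini-Hochberg) and called at 0.05. Other scalings, filters, a fit without weights (limma-trend) and the loss of each library were tried. These were followed for the 10 genes only, so the calls of other genes named carry no such check. The fold change is on voom's log2 scale with 0.5 added to each count. Intervals take 95%. A count model planned for deposited counts was not fitted. Exon lengths and overlaps are from GENCODE 29. The other genes named follow a rule: in each list, those most often called lower and higher, with UHRF1, CBX7, BMI1, DNMT3B and KDM6B. CDKN2A and SUZ12P1 were named after their values were seen. The genes and lists were chosen with earlier results of these data known. P-values rest on 1 spread per gene, pooled over the 2 samples of each of the 26 groups of 1 cell line and moderated over genes. The RS pair was the least alike (median absolute log2 difference of 0.205), so this pooled spread may understate that of RS. One gene among those most alike in course is not reported here.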

Additional observations from a re-analysis of the deposited data

Results flagged for a closer look

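The effect of SDS and that of DXR differed in 34 of 80 gene and day pairs by the limma test of the difference itself, that of SDS and KCl in 19, and that of KCl and DXR in 37. In 2 of these cases both effects were called and had opposite directions. EED on day 0 differed by -1.02 on the log2 scale, lower after SDS and higher after DXR than in untreated cells. EZH1 on day 0 differed by -0.84, again lower after SDS and higher after DXR. These 2 differences between inducers were called in all 52 fits that left out 1 library. The lower level after SDS was less firm, since against untreated cells the call of EED was lost without the larger untreated library (adjusted p = 0.242) or either SDS library, and that of EZH1 without the larger untreated library (adjusted p = 0.136) or the smaller SDS library (adjusted p = 0.157). Groups of 2 libraries are too small to test whether 1 stands apart, and the RS pair differed most, with a median absolute log2 difference of 0.205.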

How the results depend on the processing

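No paired analysis was possible because the recovered libraries carry no replicate numbers, so the planned fit with the replicate number as a term was not run. No difference of the 10 genes changed direction under any alternative as a called value. Of 580 single differences, 561 stayed on the same side of the threshold when scaled by total counts, 560 with no filter and 568 with limma-trend, and 511 of 522 among genes with a mean of at least 100 counts. With a minimum change of 2-fold, the lower and higher calls against untreated cells became 18 and 0 for SDS, 15 and 0 for KCl, 31 and 0 for DXR and 4 and 0 for RS, fewer because the minimum is added to the same test. Those between inducers became 1 and 10 (SDS minus DXR), 4 and 0 (SDS minus KCl) and 0 and 14 (KCl minus DXR), those of day 1 minus day 0 0 and 4, of day 16 minus day 0 2 and 3, and of RS minus day 16 2 and 0. Among genes with 1 possible split only, chosen after seeing the data, RS minus day 16 had 5 lower calls, since SUZ12 and DNMT1 drop out.

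Leaving out in turn each library of the groups compared, the lower calls against untreated cells ranged from 31 to 50 for SDS, 28 to 41 for KCl, 48 to 57 for DXR and 7 to 8 for RS, the lowest without the larger untreated library. SDS minus KCl had 5 to 11 higher calls, 11 without either library of KCl day 6. KCl minus DXR had 3 to 6 lower calls, 3 without the smaller library of KCl day 1. Day 1 minus day 0 had 2 to 5 lower calls, 2 without the larger library of KCl day 0. RS minus day 16 had 0 to 2 higher calls, 0 without either library of KCl day 16 and 2 without the larger one of SDS day 16. The cause was not tested. Depth limits CBX2 most, with 54 and 28 reads in the untreated libraries.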
